A study of Mus musculus with 4 samples.

Results

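Interferon-stimulated genes are switched on when a cell senses an interferon, and 39 of them were followed here in the salivary glands (SGs) of mice with and without Myd88, the adaptor protein that carries signals from most Toll-like receptors. The 39 members were fixed as a list of gene symbols, 29 classed as targets of the type I interferons and 10 as targets more typical of interferon gamma. Of these, 38 had a probe under their symbol among the 34844 gene names on the array. Ifi27 had none under that name, although the RefSeq gene table gives Ifi27l1, which was on the array, as its synonym. Probes entered the test if either genotype had them well above background on each of its arrays, and a gene was read from its brightest probe of this kind. This left 37 members, and each of the 37 was well above background on all 4 arrays.

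RNA came from submandibular and sublingual glands of female mice of strain C57/BL6 at 10 weeks of age. For the arrays, the study's legends name submandibular glands alone. Of the 4 arrays, 2 carry the label of Myd88-null mice (Myd88-/-, the null arrays) and 2 that of wild-type mice (Myd88+/+, the wild-type arrays), while the study's legends give 3 mice for each genotype. The study describes Myd88-deficient mice on a C57BL/6 background, bred from heterozygous parents and matched between genotypes. The study describes removing lymph nodes, connective tissue and fat from the glands under a stereomicroscope. Markers of lymph node, fat and skeletal muscle were still detected on the arrays and were mostly lower on the null arrays, as given below. The labels name no treatment or infection. The labels do not say whether each array holds 1 animal or a pool, so p-values measure only the spread between these samples.

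Each array is a 1-colour Agilent whole mouse genome array, where a brighter spot means that more of a transcript was bound. Values are log2 signals relative to the 75th percentile of the non-control spots of the array, so that 0 is the level of that percentile. A difference is the mean of the null arrays minus the mean of the wild-type arrays. Levels of different probes are not compared, since probes bind with different strength. Null arrays 1 and 2 had 52.2% and 68.4% of their probes well above background, and wild-type arrays 1 and 2 had 74.1% and 55.1%. Of 16 gland markers on the array, such as the submandibular protein Smgc, all 16 were well above background on all 4 arrays. Over all 22312 genes tested with limma, no gene passed an adjusted p of 0.05 (0%), the smallest adjusted p was 0.194, and 3715 genes (16.7%) had an unadjusted p under 0.05. The methods' t-test called 1 gene after adjustment, and limma with trended and robust moderation called 482. The Myd88 probe does not check the labels, because the deleted exons are not given in the sources used here. Its signal was 1.51 and 1.41 on the null arrays, and 1.15 and 1.07 on the wild-type arrays.

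Type I interferons bind the receptor Ifnar1 and Ifnar2, which activates the kinases Jak1 and Tyk2 and brings Stat2 and Irf9 into a complex that binds the interferon-stimulated response element (ISRE) of its targets. Interferon gamma binds Ifngr1 and Ifngr2, which activates Jak1 and Jak2 and leads to binding of the gamma-activated site (GAS), and it induces Irf1, which acts on ISRE-like sites. In mucosal and glandular tissue the products of these genes block viral replication, sense foreign nucleic acids, attack vacuoles that hold microbes and attract T cells.

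These motifs were found near the start site of many members. In windows from 250 bases before to 50 bases after the RefSeq start site (GRCm38.p6), the ISRE core (GAAA, any 2 bases, GAAA) and the GAS core TTCNNNGAA were searched on both strands. Windows were found for 29 of the 39 members. The ISRE core lay in 17 of the 29 (58.6%), against 1079 of all 27025 genes with a window (3.99%). The GAS core lay in 7 of the 29 (24.1%), against 9.55% of all genes, and 4 members held both. Among type I targets the ISRE core was in 11 of 21 (52.4%), and among gamma-type targets in 6 of 8 (75%). None of the 8 T cell markers with a window held the ISRE core, a set too small to differ visibly from the 3.99% of all genes. These matches are a description of letters, not of binding.

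**Figure D1:**
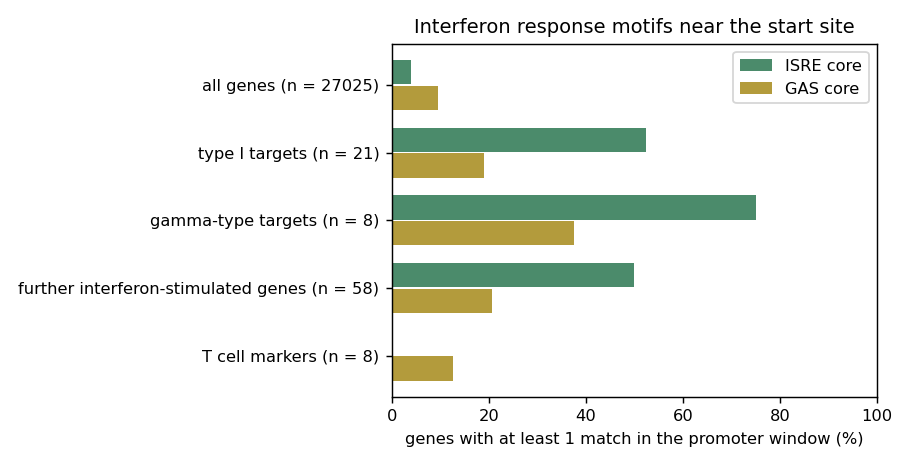
The horizontal axis gives the percentage of genes with at least 1 match to the ISRE core or the GAS core in their promoter window, for all genes, both classes of members, a list of further interferon-stimulated genes and T cell markers. The ISRE core was in 75% of gamma-type and 52.4% of type I targets, against 3.99% of all genes.

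The 150 bases before the start site are shown for the members on which the results below turn, with ISRE and GAS cores in capitals, 5′ to 3′ on the strand of the gene. Gbp3 and Gbp2 were the GTPase members with the lowest values on the null arrays relative to controls, Bst2 was the type I target with a window in this table among the 5 members that were lower at an unadjusted p under 0.05, Igtp and Irgm2 hold a GAS core just before an ISRE core, and Rsad2 and Isg15 are type I targets that were higher or nearly level. In Gbp3, Bst2 and Isg15 several ISRE cores overlap and form 1 run of capitals, and in Bst2 this run also takes in the GAS core.
Gbp3, chr3:142559894-142560043, plus strand: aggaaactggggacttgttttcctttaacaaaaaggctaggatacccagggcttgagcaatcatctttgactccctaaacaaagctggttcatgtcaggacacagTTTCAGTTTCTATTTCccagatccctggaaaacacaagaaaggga
Gbp2, chr3:142620513-142620662, plus strand: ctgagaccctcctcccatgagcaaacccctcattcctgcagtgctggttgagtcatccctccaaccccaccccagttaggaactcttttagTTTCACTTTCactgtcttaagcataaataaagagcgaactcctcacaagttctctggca
Igtp, chr11:58199406-58199555, plus strand: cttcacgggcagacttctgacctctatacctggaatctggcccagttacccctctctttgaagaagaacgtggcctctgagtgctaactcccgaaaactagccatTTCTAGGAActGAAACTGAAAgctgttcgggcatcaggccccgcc
Irgm2, chr11:58214827-58214976, plus strand: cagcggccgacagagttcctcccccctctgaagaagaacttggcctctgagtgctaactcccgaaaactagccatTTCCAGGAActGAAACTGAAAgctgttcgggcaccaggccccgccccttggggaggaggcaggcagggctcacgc
Bst2, chr8:71537473-71537622, minus strand: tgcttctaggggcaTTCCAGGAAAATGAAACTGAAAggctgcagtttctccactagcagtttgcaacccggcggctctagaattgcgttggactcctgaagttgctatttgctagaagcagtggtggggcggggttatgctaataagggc
Rsad2, chr12:26456453-26456602, minus strand: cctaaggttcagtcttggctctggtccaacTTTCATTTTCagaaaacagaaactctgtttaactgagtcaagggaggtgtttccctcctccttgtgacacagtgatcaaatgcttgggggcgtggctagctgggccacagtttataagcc
Isg15, chr4:156200819-156200968, minus strand: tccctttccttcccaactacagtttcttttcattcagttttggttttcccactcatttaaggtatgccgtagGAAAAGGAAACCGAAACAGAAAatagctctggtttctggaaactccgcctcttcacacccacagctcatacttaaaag
In the first of 2 windows of Gbp3 the ISRE cores began 45 and 39 bases before the start site. In Gbp2 the core began 59 bases before it, in Igtp 34 and in Irgm2 64, each of the last pair with a GAS core starting 11 bases further upstream. The motif did not sort the members by direction. Of the 16 tested members with an ISRE core, 11 were lower and 5 higher on the null arrays, with a median log2 difference of -0.08. Of the 12 with a window and no ISRE core, 8 were lower and 4 higher, with a median of -0.14.

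Gbp3, Cxcl9 and Gbp2, all gamma-type targets, had the lowest differences among the members, and Rsad2, a type I target, had the highest. The log2 differences of the other tested members lay between -0.39 (Oas2) and 0.32 (Ifi35). Of the 37 tested members, 23 were lower and 14 higher on the null arrays, and their log2 differences ran from -1.004 for Gbp3 to 0.43 for Rsad2. The median difference was -0.08, beside 0.06 over all genes tested, of which 40.4% were lower. No member passed the adjusted threshold in limma or in the methods' t-test, and only Gbp3 did so with trended and robust moderation. At an unadjusted p under 0.05, limma gave 5 members lower (Gbp3, Cxcl9, Gbp2, Parp14 and Bst2) and 2 higher (Ifi35 and Rsad2), where 6.83% of all genes were lower and 9.82% higher. Both null arrays lay below both wild-type arrays for 16 members (43.2%), against 18.7% of all genes, and above them for 6 members (16.2%), against 33.2% of all genes. With each array scaled to its median instead, 2 members (5.41%) lay below and 1 (2.7%) above without overlap, where 8.37% and 5.3% of all genes did so, and no member had an unadjusted p under 0.05. In bulk tissue, fewer cells of a type and less RNA in each cell cannot be told apart.

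**Figure D2:**
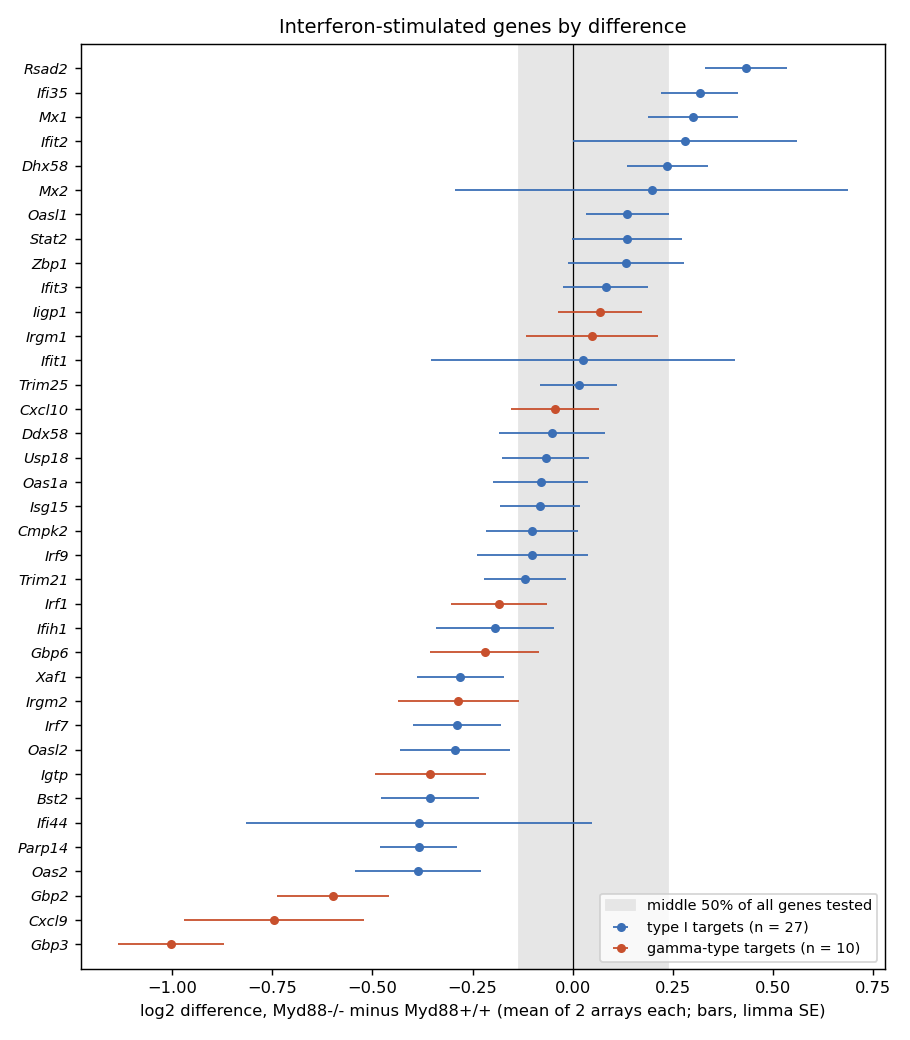
The 37 tested members are ordered by log2 difference (horizontal axis, Myd88-/- minus Myd88+/+, mean of 2 arrays each, bars the limma standard error), coloured by class, with the middle 50% of all genes tested as a grey band. Gamma-type targets take the lowest 3 places, Gbp3 at -1.004, Cxcl9 at -0.75 and Gbp2 at -0.60, and type I targets the highest 10.

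The classes differed in their counts. Of the 10 gamma-type targets, 8 were lower and 2 higher, 7 (70%) were lower without overlap between genotypes and 0 were higher without overlap, and the median log2 difference was -0.25. Of the 27 type I targets tested, 15 were lower and 12 higher, 9 (33.3%) were lower and 6 (22.2%) higher without overlap, and the median was -0.07. Over all genes tested, 40.4% were lower, and 18.7% were lower and 33.2% higher without overlap. The difference between the classes was not tested. Because arrays with a like share of detected probes fell in opposite genotypes, values were also taken between such arrays. The gamma-type median was -0.22 for null array 1 against wild-type array 2 and -0.31 for null array 2 against wild-type array 1, beside 0.05 and 0.07 over all genes. In both pairs 7 of the 10 gamma-type targets were lower, beside 25.8% of all genes. The type I medians were -0.06 and -0.01. With scaling to the array median, 9 of the 10 gamma-type targets were lower and 2 did not overlap, beside 48.3% of all genes lower and 8.37% lower without overlap.

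Guanylate-binding proteins and immunity-related GTPases, which gather on vacuoles that hold intracellular microbes and help to break them, made up 7 members, of which 5 were lower and 2 higher. The probe of Gbp3 lies on chromosome 3 at 142236032 to 142236091 (NCBI37/mm9). Its signal was -0.70 and -0.94 on the null arrays, and 0.22 and 0.15 on the wild-type arrays. Both null arrays were lower by far more than the gap between arrays of a genotype, with means of -0.82 ± 0.17 and 0.18 ± 0.05 (SD, n = 2 each). The log2 difference of -1.004 (SE 0.13), or 2.01-fold, had a limma adjusted p of 0.194, which ranged from 0.039 with trended and robust moderation to 1 with median scaling.

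Gbp2, whose probe lies on chromosome 3 at 142300719 to 142300778, gave -0.18 and -0.43 on the null arrays and 0.36 and 0.23 on the wild-type arrays. The genotypes did not overlap, and the log2 difference was -0.60 (SE 0.14, limma adjusted p = 0.222). Gbp6 gave -2.06 and -1.91 against -1.88 and -1.65, a smaller gap of -0.22 with no overlap. A further Gbp6 probe had the opposite sign, at 0.51, so the direction of Gbp6 was not settled. Among the immunity-related GTPases, Igtp gave 1.11 and 0.86 against 1.39 and 1.29, a log2 difference of -0.36. Irgm2 gave 0.88 and 0.63 against 0.94 and 1.15, a difference of -0.29. In both genes the genotypes did not overlap, but their nearest arrays lay closer together than the 2 null arrays did. Irgm1, which regulates the other immunity-related GTPases, overlapped between genotypes, with 2.05 and 1.76 against 1.74 and 1.97, and a dimmer probe of it was higher without overlap by 0.27. Iigp1 also overlapped, with 0.60 and 0.69 against 0.54 and 0.61. A further, dimmer probe of it differed in sign and was not well above background on null array 1.

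The members are part of larger families, which were read from a fixed list, and the counts over each family include the 7 members. Of 10 tested guanylate-binding protein genes, 8 were lower without overlap and 2 were higher, 1 of them (Gbp5, 0.10) without overlap. A dimmer Gbp5 probe was lower without overlap, at -0.51, so the direction of Gbp5 was not settled. Their median log2 difference was -0.56. At an unadjusted limma p under 0.05, 5 of the 10 were lower, where 6.83% of all genes were. These were Gbp8, Gbp11 (-1.30, or -0.53 with normexp), Gbp3, Gbp4 (-0.83) and Gbp2. Gbp8 was not well above background on either null array and was at least 1.09-fold lower there, a bound that sets its wild-type mean against, on each null array, the higher of its own signal and the dimmest signal counted as above background. Of 8 tested immunity-related GTPase genes, 6 were lower, 5 of them without overlap, with a median of -0.32. The counts and medians of the 2 families include Gbp8 and Tgtp1 (-0.15, overlapping), which passed the filter only through the wild-type arrays. Without the members, and among genes well above background on all 4 arrays, 4 of 6 guanylate-binding proteins and 3 of 3 immunity-related GTPases were lower, each of these without overlap, where 18.7% of all genes were. The lowest immunity-related GTPase was Tgtp2, with 1.12 and 1.15 on the null arrays and 2.24 and 1.83 on the wild-type arrays. Genes of each family are close copies of each other, and transcripts of one may bind the probe of another.

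**Figure D3:**
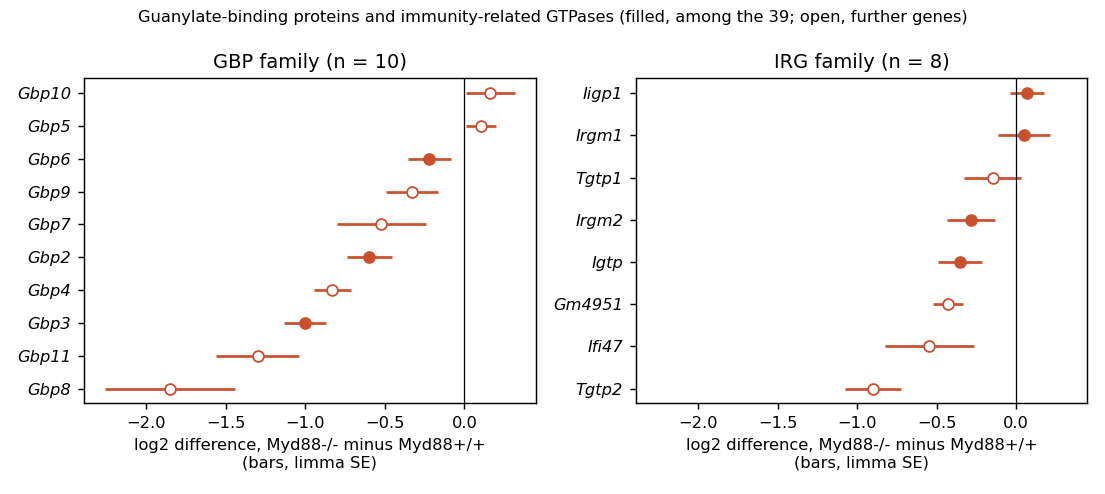
Log2 differences (horizontal axes, Myd88-/- minus Myd88+/+, bars the limma standard error) of the tested guanylate-binding proteins (left) and immunity-related GTPases (right), filled where the gene is a member and open where it comes from the further list. In the left panel 8 of 10 genes lie below 0 and in the right panel 6 of 8, with Gbp8 plotted at -1.85 although it is only a bound. Tgtp1, in the right panel, was well above background only on the wild-type arrays.

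The chemokines Cxcl9 and Cxcl10, which draw activated T cells and NK cells through a shared receptor, differed from each other. Cxcl9 gave -3.25 and -2.94 on the null arrays and -2.12 and -2.58 on the wild-type arrays. The genotypes did not overlap, and the log2 difference was -0.75 (SE 0.22, limma adjusted p = 0.263), with -0.24 under normexp background correction. A further, on average dimmer Cxcl9 probe was well above background only on the wild-type arrays, at -1.71 and -1.80, and was at least 4.73-fold lower on the others. Cxcl10 overlapped, at -1.14 and -1.23 against -1.08 and -1.20.

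**Figure D4:**
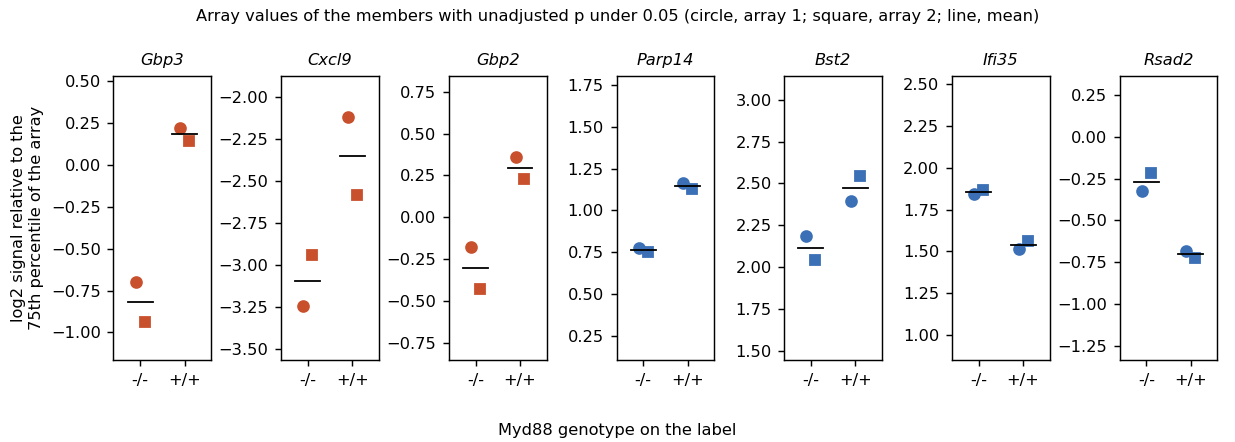
Each panel plots 1 of the 7 members with an unadjusted limma p under 0.05, with the log2 signal relative to the 75th percentile of the array on the vertical axis (all panels span the same range of log2 units), a point for each array and a line for the mean of each genotype on the horizontal axis. In Gbp3, Cxcl9, Gbp2, Parp14 and Bst2 both null arrays are below both wild-type arrays, and in Ifi35 and Rsad2 both are above.

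The 18 tested antiviral effectors went both ways, with 10 lower, 8 higher and a median log2 difference of -0.07. Rsad2, whose product viperin blocks replication of many viruses, gave -0.32 and -0.22 on the null arrays and -0.68 and -0.72 on the wild-type arrays. It was higher on both null arrays, by 0.43 (SE 0.10, limma adjusted p = 0.225). Ifi35, an interferon-induced leucine zipper protein, gave 1.85 and 1.87 against 1.52 and 1.56. It was also higher on both, by 0.32 (SE 0.10, limma adjusted p = 0.266). Mx1, a dynamin-like GTPase that blocks influenza viruses, gave -1.35 and -1.43 against -1.61 and -1.76, higher without overlap by 0.30. Smaller gaps of the same direction, without overlap, were seen for Oasl1 at 0.14 and Ifit3 at 0.08.

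Other effectors were lower on the null arrays. Parp14, an ADP-ribosyltransferase, gave 0.77 and 0.75 against 1.16 and 1.13, a log2 difference of -0.38 (SE 0.10, limma adjusted p = 0.232). Bst2, or tetherin, which holds budding virus at the cell surface, gave 2.19 and 2.04 against 2.39 and 2.55, a difference of -0.36 (SE 0.12, limma adjusted p = 0.294). In both genes the genotypes did not overlap. Oas2, a sensor of double-stranded RNA that activates RNase L, gave -0.51 and -0.85 against -0.31 and -0.27. Oasl2 (-0.29), Xaf1 (-0.28) and the ubiquitin-like modifier Isg15 (-0.08) were also lower without overlap. Isg15 gave 1.76 and 1.69 against 1.78 and 1.83, so that its gap was of the size of the spread between arrays.

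For the remaining effectors the genotypes overlapped. Usp18, which removes Isg15 from proteins and damps the type I receptor, gave 0.47 and 0.40 against 0.44 and 0.56. Ifit1, which binds viral RNA ends, gave -2.49 and -1.50 on the null arrays, a wider gap than between the genotype means, and -2.11 and -1.93 on the others. The same held for Mx2, at -2.33 and -1.31 against -1.61 and -2.44, and for Ifi44, at -2.22 and -1.06 against -1.21 and -1.30. In these genes the 2 arrays of a genotype disagreed, and leaving out 1 null array turned the sign. Ifit2 (0.28), Oas1a (-0.08) and Cmpk2 (-0.10) overlapped as well. Oas3 was well above background on wild-type array 1 alone and was not tested, with -6.08 and -5.36 against -3.78 and -6.42. Ifi27l1, the array's name for the RefSeq synonym of Ifi27, gave 7.11 and 7.38 against 7.28 and 7.46 and overlapped.

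Of the 4 transcription factors among the members, 3 were lower and 1 higher. Irf7, which amplifies type I interferon production downstream of Toll-like receptors and Myd88, gave -0.82 and -0.80 on the null arrays and -0.45 and -0.59 on the wild-type arrays. The genotypes did not overlap, and the log2 difference was -0.29 (SE 0.11, limma adjusted p = 0.32). Irf1 gave 2.90 and 2.75 against 3.07 and 2.95, a difference of -0.18 without overlap, its lowest wild-type array only just above its highest null array. The ISRE-binding partners overlapped, with Irf9 at 2.58 and 2.48 against 2.50 and 2.76 and Stat2 at 2.46 and 2.30 against 2.13 and 2.36.

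The 6 nucleic acid sensors and their ubiquitin ligases were split, with 3 lower, 3 higher and a median of -0.02. Dhx58, a regulator of the RNA sensors, gave -0.76 and -0.85 against -1.06 and -1.02, higher without overlap by 0.24. Ifih1, which senses long double-stranded RNA, gave 0.96 and 0.95 against 0.99 and 1.30, lower by 0.19 on the log2 scale without overlap. A dimmer Ifih1 probe gave 0.29, but it was well above background on null array 2 and wild-type array 2 alone. Trim21, which targets antibody-bound virus, gave 0.38 and 0.27 against 0.45 and 0.43. Ddx58, the sensor RIG-I, overlapped at 1.63 and 1.61 against 1.55 and 1.80, while a dimmer probe was lower without overlap at -0.48. Genotypes also overlapped for the DNA sensor Zbp1 (0.13) and Trim25 (0.01), the ligase that activates RIG-I. A dimmer Zbp1 probe, not well above background on null array 1, gave -0.68, and a dimmer Trim25 probe gave -0.19.

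The genes upstream of the members were read from fixed lists. Of 15 interferon genes on the array 8 were tested, with Ifng and Ifnb1 well above background on no array. Ifnk, an epithelial type I interferon, gave -1.36 and 0.54 on the null arrays and -2.59 and -2.67 on the wild-type arrays. The 2 null arrays differed in Ifnk by nearly as much as the genotypes, the log2 difference of 2.22 was 1.42 with normexp, and the limma adjusted p was 0.273. Ifna1 was higher without overlap by 0.43, or 0.24 with normexp. All 6 receptor chains were tested and none had an unadjusted p under 0.05, with log2 differences of -0.02 for Ifnar1, -0.30 for Ifnar2, -0.17 for Ifngr1 and 0.09 for Ifngr2. Of these, Ifnar1 overlapped between genotypes, and a dimmer Ifnar1 probe was higher without overlap by 0.17.

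The list of JAK-STAT and IRF signal proteins also holds Irf2bp1 and Irf2bp2, which bind Irf2, and shares Irf2 with the list of inhibitors. Of its 10 genes reported here that were well above background on all 4 arrays, 7 were lower and 3 higher, and 3 lower genes had an unadjusted p under 0.05 (Irf8, Irf2 and Jak2), where 6.83% of all genes did. Tyk2 (-0.12) and Irf3 (0.11) overlapped between genotypes. Jak1 (-0.25) and Jak2 (-0.31) were lower without overlap. Stat4, which acts in T and NK cells, was not well above background on the null arrays and was at least 3.75-fold lower there. Irf8 gave 0.68 and 0.64 against 2.02 and 1.47, a gap without overlap. Irf4, not well above background on null array 1, had a difference of -1.62, or -0.62 with normexp.

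Of 11 tested inducers of interferon, 7 were higher and 4 lower. Tmem173, the DNA-pathway adaptor STING, gave 0.78 and 0.70 against 1.67 and 1.28, a log2 difference of -0.74. Unc93b1 (-0.45), which brings Toll-like receptors to endosomes, was lower too, and Tlr3 (0.28) and its adaptor Ticam1 (0.26) were higher. None of these overlapped between genotypes. Ikbke had a difference of -1.16, was not well above background on null array 1, and came to -0.23 with normexp. The brightest Tlr7 probe was higher by 0.39, but a dimmer one was lower without overlap at -0.73, so the direction of Tlr7 was not settled. Of 11 inhibitors of interferon signals, 6 were lower without overlap and 4 of them had an unadjusted p under 0.05, beside the 18.7% and 6.83% of all genes given above. Socs1, an inhibitor of JAK kinases that interferon gamma itself induces, gave -2.71 and -2.75 against -1.92 and -1.62, a difference of -0.97 (SE 0.15, limma adjusted p = 0.194), and of -0.44 with normexp. Socs3 (-0.52), Ptpn6 (-0.50), Irf2 (-0.41) and Sh2b3 (-0.31) were lower and Pias2 (0.55) higher, each without overlap.

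A list of further interferon-stimulated genes had 72 of 78 symbols on the array and 65 genes tested. Of the 60 that were well above background on all 4 arrays, 39 were lower and 21 higher, with a median log2 difference of -0.13. Without overlap 26 (43.3%) were lower and 7 (11.7%) higher, beside 18.7% and 33.2% of all genes. At an unadjusted p under 0.05 there were 11 lower and 1 higher, beside 6.83% and 9.82% of all genes. The 1 higher was Ifi30 at 1.23, a thiol reductase of lysosomes. Ccl5, a chemokine made in quantity by T and NK cells, gave 0.26 and 0.51 against 3.07 and 2.01. Nlrc5, the activator of MHC class I genes, gave -1.21 and -1.61 against 0.38 and 0.14 on its brightest probe. A dimmer Nlrc5 probe was higher without overlap, with -2.53 and -2.55 against -3.10 and -2.80, so the direction of Nlrc5 was not settled. Trim30d had a difference of -1.30, or -0.47 with normexp.

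Markers of lymphocytes were lower on the null arrays as well. Of 14 T cell markers on the array 13 were tested, and 8 were well above background on all 4 arrays. These 8 were all lower, with a median log2 difference of -1.65. Of them, 5 were lower without overlap and 5 at an unadjusted limma p under 0.05, beside 18.7% and 6.83% of all genes. The median over all 13, which includes genes too dim to measure on a null array, was -2.71. Their summed signal, as log2, was 3.71 and 3.67 on the null arrays and 4.76 and 4.26 on the wild-type arrays. Lck had a difference of -3.06. Cd3d was not well above background on null array 1, with a difference of -4.45, or -2.32 with normexp. Icos was not well above background on the null arrays, and Cd3e (-0.06) and Cd4 (-0.04) overlapped. Of the markers of other cells, those well above background on all 4 arrays were counted. B cell markers were lower in 5 of 5, with a summed log2 signal of 1.76 and 1.71 against 4.13 and 3.34. The study's flow cytometry went the opposite way, with more B cells and plasma cells in submandibular glands of male Myd88-/- mice. It counted stained cells rather than RNA, and the reason for the disagreement was not tested. NK and cytotoxic cell markers were lower in 3 of 4, with 2.61 and 2.53 against 2.90 and 2.64, and Klrk1 was above background on no array. Lymph node stroma and vessel markers were lower in 4 of 5. Glycam1 of lymph node vessels gave -6.29 and -3.48 against 4.20 and 2.26. Its signal on null array 1 was as dim as that of Gbp8, which was not well above background there. Macrophage markers were lower in 5 of 11, with a summed signal of 5.46 and 5.27 against 5.55 and 5.16 that overlapped. Plasmacytoid dendritic cell markers were lower in 3 of 6, with sums of 8.13 and 8.21 against 8.02 and 8.20. The sums hide a split among these markers. Of the 7 tested, 3 were lower and 2 higher without overlap, beside 18.7% and 33.2% of all genes. At least 2-fold, 2 were lower and 0 higher. The median signal of the 7 was -1.03 and -1.17 on the null arrays and 1.07 and 1.74 on the wild-type arrays. Outside the immune cells, skeletal muscle markers were lower in 5 of 5, with a median log2 difference of -3.45, below that of the T cell markers. Adipocyte markers were lower in 8 of 8 (median -0.71) and endothelial markers in 6 of 9 (median -0.20). Gland markers were higher in 11 of 16 (median 0.31). The summed signal of the gamma-type targets was 4.28 and 4.10 against 4.40 and 4.39, and that of the type I targets was 6.43 and 6.39 against 6.41 and 6.47. The part of these cells in the differences of the members was not tested.

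**Figure D5:**
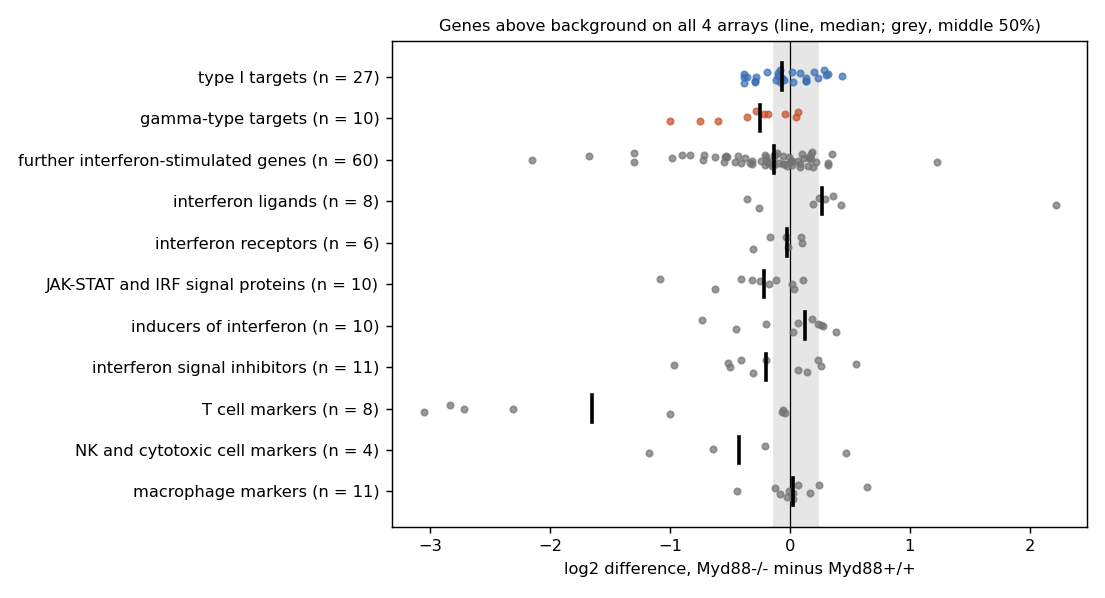
Each point is a tested gene that was well above background on all 4 arrays, placed by its log2 difference (horizontal axis, Myd88-/- minus Myd88+/+) in the row of its list, with a black line at the median of the list and a grey band for the middle 50% of all genes tested. Type I targets lie around the band with a median of -0.07, gamma-type targets reach lower with a median of -0.25, and the 8 T cell markers have a median of -1.65.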

How the data were processed

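Gene expression was measured in 4 samples, 2 arrays for each Myd88 genotype. The authors deposited the output of Agilent Feature Extraction 10.7.3.1 for each array. The deposited processed signal of a spot is an intensity after background subtraction and spatial detrending by that software. Arrays had not been normalized to each other, and the dimmest spots carry a substitute value. Flags for spots well above background, saturated spots (0 on each array) and outliers came from the same deposited files, as did gene names and probe positions (NCBI37/mm9). A deposited table of the whole series was left out, since the names of its 4 value columns match no single sample. Depth has no meaning for arrays, and their number limits the precision.

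Here, log2 processed signals of 59305 non-control spots were scaled by subtracting the 75th percentile of their array, outlier spots were left out (99 to 131 on an array), and spots of 1 of the 55681 probes were averaged. The background flag of a probe needed more than 0.5 of its spots to be flagged so. The test was limma 3.58.1 (lmFit, eBayes; R 4.3.3) over 22312 genes with Benjamini-Hochberg adjustment at 0.05. The procedure was tested on simulated data. All 4 arrays come from 1 slide and 1 scan, so no batch could be separated. Promoter windows came from a RefSeq table of GRCm38.p6, read with Python 3.11.15.

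The named genes are the 39 members, a fixed set of pathway genes and, of each list, up to 6 genes with the largest difference and no overlap between genotypes. Further family members were named after their values were seen. Some genes of the signal protein list and of the list of further interferon-stimulated genes are not reported here and were left out of the counts of those lists. The members and lists were chosen with earlier results of these data known. Alternatives numbered 15 planned and 2 added after seeing the data. They were quantile normalization, normexp (offset 50), median scaling, a 75th percentile of detected probes only, dim probes unfiltered or filtered more strictly, probes of a gene averaged, outlier spots kept, the methods' t-test, trended and robust moderation, a replicate block, crossed replicate pairs, leaving out single arrays and members above background on all 4 arrays.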

Additional observations from a re-analysis of the deposited data

How the results depend on the processing

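The median log2 difference of the 37 members stayed negative in every alternative, as did those of the type I and gamma-type targets. With single arrays left out, the gamma-type median ran from -0.34 to -0.20 and the type I median from -0.07 to -0.01. Genes past the adjusted threshold numbered 0 in limma, 79 with normexp background correction, 402 with median scaling, 482 with trended and robust moderation and 1 in the methods' t-test. Members past it numbered 0 in all alternatives but trended and robust moderation, with 1 (Gbp3). Members higher at an unadjusted p under 0.05 numbered 2, but 3 with normexp and in the methods' t-test, 1 with quantile normalization, 0 with median scaling, 1 with no filter on dim probes and 0 to 1 with an array left out. Members lower numbered 5, but 7 with normexp, 8 with the 75th percentile over detected probes, 6 with quantile normalization, 0 with median scaling, 3 with no filter, 2 in the methods' t-test and 1 to 3 with an array left out, the lowest without wild-type array 1. Over all genes, 2190 were higher and 1525 lower at that p, against 1741 and 1808 with the 75th percentile over detected probes, 1700 and 1660 with quantile normalization and 240 and 755 with median scaling. The cause was not tested, apart from fewer samples when an array is left out.

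With the replicate number as a block, 0 genes and 0 members passed the threshold, and members at an unadjusted p under 0.05 numbered 0 higher and 2 lower. Deviations of arrays of the same number correlated at -0.37 over 22312 genes, and those of crossed numbers at 0.37. With 2 arrays for each genotype these values mirror each other by construction. They cannot show whether the numbers pair the samples. With crossed pairs as a block, 0 genes passed, and 1 member was higher and 5 lower at an unadjusted p under 0.05.

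Several small log2 differences turned their sign. With normexp Trim25 was -0.036, Cxcl10 0.021 and Cmpk2 0.029. With quantile normalization Trim25 was -0.044. With the 75th percentile over detected probes Ifit1 was -0.023 and Trim25 -0.033, and with median scaling Ifit1 was -0.027, Irgm1 -0.0036 and Trim25 -0.037. With the mean of a gene's probes Gbp6 was 0.14, Iigp1 -0.29, Trim25 -0.086, Zbp1 -0.28, Ifnar1 0.023 and Tlr7 -0.17. With single arrays left out, Ifi44 ran from -0.96 to 0.19, Irgm1 from -0.096 to 0.19, Trim25 from -0.0083 to 0.038, Ifnar1 from -0.16 to 0.13, Cd3e from -0.20 to 0.080, Ifit1 from -0.47 to 0.52, Oas1a from -0.18 to 0.017, Mx2 from -0.31 to 0.71, Cxcl10 from -0.11 to 0.020, Irf9 from -0.23 to 0.027, Ddx58 from -0.18 to 0.074 and Zbp1 from -0.0073 to 0.27.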
